A study of Homo sapiens with 18 samples.

Results

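Aminoacyl-tRNA synthetases were taken by gene symbol, as genes of the form XARS1 (cytosolic) or XARS2 (mitochondrial) together with EPRS1, FARSA and FARSB, and followed across 9 isogenic clones of the human colorectal carcinoma line HCT116. Of 35 synthetase symbols, 32 had a probe set that carries 1 gene symbol, out of 19775 genes with such a probe set in all. They comprised 17 cytosolic enzymes, among them GARS1 and KARS1, whose single genes also supply the mitochondrion, and 15 mitochondrial ones. The probe sets of MARS1, QARS1 and TARS2 carry a further symbol each, so these genes have no value here. All 32 passed the filter on dim probe sets, as did 12541 genes in all.

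Total RNA of each clone was hybridised in 2 biological replicates after 6 days of growth, which gave 18 one-colour Affymetrix arrays. The parental clone carries wild-type IDH1 and IDH2, the genes of the NADP-dependent isocitrate dehydrogenases of cytosol and mitochondrion. The 8 other clones were gene-targeted, each with its mutation on 1 allele. IDH2 R172K is carried by 45G3 and 47C2, IDH2 R140Q by 17H5 and 8G12, IDH1 R132C by 3A4 and IDH1 R132H by 2C11 and by 2H1. Clone 16F8 was also targeted with IDH1 R132C but does not express the mutant allele, and the labels class its mRNA as wild-type. Every group is thus a single clone, so a test over the 18 arrays compares clones and not genotypes, and its error is the spread between 2 arrays of a clone, which the labels tie to no separate thaw or day.

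A synthetase joins 1 amino acid to its transfer RNA, and the charged tRNA then delivers it to the ribosome. Cytosolic and mitochondrial ribosomes are served by separate sets of enzymes, both encoded in the nucleus, and several cytosolic ones sit in a multi-synthetase complex held together by scaffold proteins such as AIMP1. When amino acids run short or proteins misfold, phosphorylated eIF2 raises translation of the transcription factor ATF4, and ATF4 with C/EBP partners induces amino acid transporters, asparagine synthetase (ASNS) and many cytosolic synthetases through the C/EBP-ATF response element.

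Values are MAS5 signals, a linear brightness per probe set. Array medians lay between 12.3 and 15.6, and after trimming to the middle 96% every array averaged 150.01 to 150.02. Precision is limited by the number of arrays. Arrays of 1 clone correlated at 0.987 to 0.995 over genes and arrays of different clones at 0.95 to 0.991. In 4 arrays (parental 1, 16F8 1, 2C11 1 and 8G12 2) the spiked-in poly-A controls averaged 172.4 to 204, against 76.1 to 129 in the other 14. The epithelial markers EPCAM, CDH1, KRT8, KRT18 and KRT19 passed the filter, with a summed signal of 10069 to 14661 for the colon epithelium list, whereas CDX1, VIL1 and LGALS4 stayed at or below 8.7. Of the fibroblast list COL1A1 alone passed of 8 (summed 205 to 377), and of the blood list HBB alone of 6 (summed 13.7 to 44.5). In bulk RNA, fewer cells of a type and less RNA per cell cannot be told apart.

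RefSeq promoters, 250 bases before to 50 bases after each start site on GRCh38.p14, matched 27 of the 32 synthetases, 14 cytosolic and 13 mitochondrial. The core of the C/EBP-ATF response element, TGATGNAA on either strand, was in the promoters of 6 of the 14 cytosolic synthetases (42.9%) and of 1 of the 13 mitochondrial ones (7.69%), beside 4.46% of 27305 genes with a promoter in the table. The 30 bases around each of these 7 matches are printed below 5′ to 3′ on the strand of the gene, with the match in capitals, since they are the matches behind these counts. Both parental arrays were the brightest of the 18 for all 6 cytosolic genes with a match, and also for EPRS1, SARS1 and WARS1, whose promoters hold none; the other 5 cytosolic genes with a promoter had neither.
AARS1, chr16:70289675-70289704, minus strand: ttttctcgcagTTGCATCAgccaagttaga
CARS1, chr11:3057407-3057436, minus strand: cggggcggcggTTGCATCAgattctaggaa
GARS1, chr7:30594834-30594863, plus strand: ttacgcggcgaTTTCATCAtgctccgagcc
IARS1, chr9:92293692-92293721, minus strand: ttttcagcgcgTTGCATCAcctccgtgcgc
NARS1, chr18:57621804-57621833, minus strand: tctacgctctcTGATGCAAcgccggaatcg
TARS1, chr5:33440956-33440985, plus strand: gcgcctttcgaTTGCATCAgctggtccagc
YARS2, chr12:32756076-32756105, minus strand: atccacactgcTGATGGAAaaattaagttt
The match is on the strand opposite to transcription in 5 of the 7, and in AARS1, CARS1, IARS1, NARS1 and TARS1 its letters are those of TGATGCAA or of its complement. The ETS-family motif CCGGAAGT was in 5 of 14 cytosolic and 3 of 13 mitochondrial synthetases (4.95% of all genes), and the NRF1 motif in 0 of 14 and, for MARS2, in 1 of 13 (1.52% of all genes). HARS1 and HARS2, the cytosolic and mitochondrial histidyl enzymes, are transcribed head to head. The 84 bases between their start sites hold 2 ETS matches, shown in capitals.
HARS1 to HARS2, chr5:140691371-140691454, plus strand: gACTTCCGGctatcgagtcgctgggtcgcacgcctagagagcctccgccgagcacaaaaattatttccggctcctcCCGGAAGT
A match in letters is a description of the sequence and not a bound site.

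After adding 2.2 to each signal and taking log2, levels were compared with limma's moderated F-test over the 9 clones, adjusted by Benjamini-Hochberg over the 12541 genes with a threshold of 0.05. By this test 14 of 17 cytosolic and 8 of 15 mitochondrial synthetases differed among the clones, beside 52.4% of all genes. The 3 cytosolic enzymes that did not pass were FARSB, the beta subunit of the phenylalanyl enzyme (adjusted p = 0.0769), the asparaginyl enzyme NARS1 (adjusted p = 0.16) and the lysyl enzyme KARS1 (adjusted p = 0.322). The 5 smallest p-values belonged to the cytosolic enzymes AARS1 (alanine, adjusted p = 1.15e-07), CARS1 (cysteine, 1.93e-07), SARS1 (serine, 8.61e-07), GARS1 (glycine, 1.77e-05) and WARS1 (tryptophan, 2.15e-05).

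**Figure D1:**
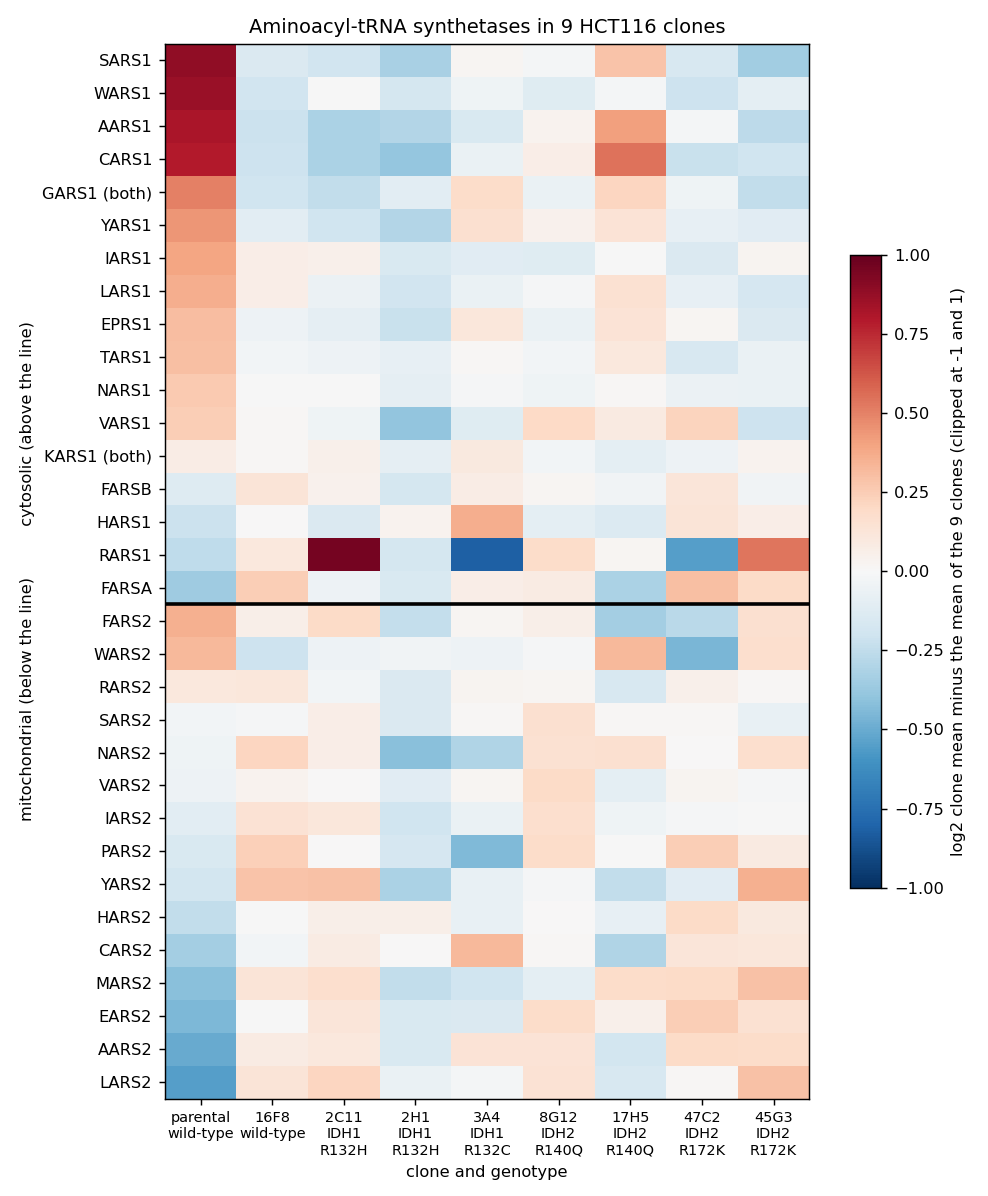
Log2 level of 32 synthetases in each of 9 clones (columns, mean of 2 arrays) as the difference from the gene's mean over the clones (colour, clipped at -1 and 1), ordered by the parental value within cytosolic and mitochondrial enzymes. The parental column is red for 13 cytosolic enzymes from SARS1 to KARS1 and blue for the mitochondrial enzymes at the bottom of the list.

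Most cytosolic synthetases were highest in the parental clone. AARS1, whose product charges alanine, read 1799.7 ± 11.2 in parental, 882 ± 41.4 in 16F8, 818 ± 31.7 in 2C11, 833 ± 15.6 in 2H1, 917 ± 38.8 in 3A4, 1358 ± 14.4 in 17H5, 1046 ± 48.7 in 8G12, 850.2 ± 51.5 in 45G3 and 1010.1 ± 21.6 in 47C2 (mean ± SD of 2 arrays, as for all signals here). Both parental arrays lay above all 16 others, and 17H5 came next, clear of the rest. The cysteinyl enzyme CARS1 read 1258 ± 3.25 in parental, 630.0 ± 20.6 in 16F8, 584 ± 18.5 in 2C11, 555 ± 40.2 in 2H1, 694 ± 2.76 in 3A4, 1062 ± 66.5 in 17H5, 759.9 ± 29.1 in 8G12, 634 ± 60.03 in 45G3 and 624 ± 3.96 in 47C2. Its order was the same at the top, with 8G12 in the third place. The seryl enzyme SARS1 read 1878 ± 78.8 in parental, 921 ± 37.8 in 16F8, 894 ± 125 in 2C11, 815 ± 61.5 in 2H1, 1029.6 ± 28.7 in 3A4, 1241 ± 95.2 in 17H5, 1002 ± 10.7 in 8G12, 799 ± 12.1 in 45G3 and 910.1 ± 6.72 in 47C2, again with parental first and 17H5 second.

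WARS1, the tryptophanyl enzyme, which interferon also induces in many cells, read 960.0 ± 41.5 in parental, 460.5 ± 16.0 in 16F8, 526.2 ± 24.2 in 2C11, 467 ± 13.0 in 2H1, 513 ± 45.0 in 3A4, 519 ± 14.9 in 17H5, 486 ± 62.3 in 8G12, 495 ± 68.0 in 45G3 and 458 ± 15.2 in 47C2. Here 17H5 lay among the other targeted clones, whose 8 means spanned 458 to 526.2 with overlapping arrays. The glycyl enzyme GARS1 read 2882 ± 129 in parental, 1763 ± 84.0 in 16F8, 1710.0 ± 3.89 in 2C11, 1887 ± 83.4 in 2H1, 2305 ± 67.0 in 3A4, 2360.3 ± 139 in 17H5, 1944 ± 167 in 8G12, 1706 ± 8.20 in 45G3 and 1970.5 ± 16.4 in 47C2. Parental was again apart, and 17H5 and 3A4 followed with overlapping arrays.

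**Figure D2:**
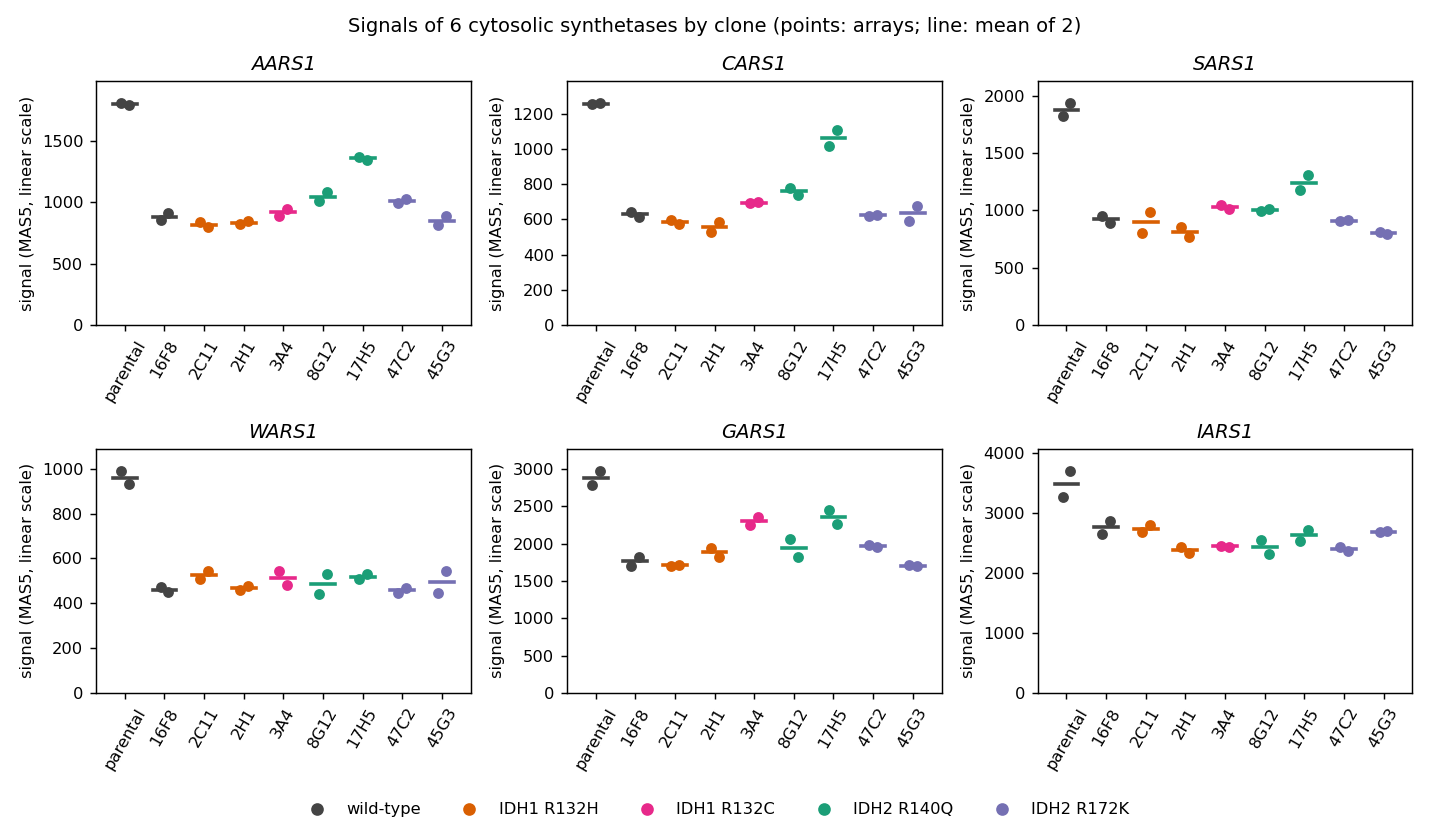
MAS5 signal (linear scale, from 0) of 6 cytosolic synthetases in 9 clones; points are the 2 arrays of a clone, lines their mean, and colours the genotype. Both parental arrays lie above the other 16 in all 6 panels, and 17H5 is second for AARS1, CARS1, SARS1 and GARS1 but not for WARS1 or IARS1.

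In all, both parental arrays lay above the other 16 for 11 of 17 cytosolic synthetases (AARS1, CARS1, EPRS1, GARS1, IARS1, LARS1, NARS1, SARS1, TARS1, WARS1 and YARS1), beside 7.17% of all genes, and below them for 0 of 17 (7.69% of all genes). The contrast of parental with the mean of the 8 targeted clones was chosen after this was seen. In it 12 of 17 cytosolic synthetases were higher in parental and 2 lower, beside 15.8% and 17.8% of all genes, with a median log2 difference of 0.35 (-0.01 over all genes). The differences were 0.99 ± 0.08 (SE) for SARS1, 0.97 ± 0.09 for WARS1, 0.92 ± 0.06 for AARS1 and 0.89 ± 0.07 for CARS1, with adjusted p of 5.41e-08, 2.6e-07, 1.97e-08 and 9.16e-08, and 0.57 ± 0.06 for GARS1 (4.33e-06). Second probe sets gave 1.18 for SARS1 and 1.04 for WARS1. Of 4 CARS1 probe sets 3 gave 0.89 to 1.11, and a dim one gave -0.02 ± 0.32. Second probe sets did not pass for TARS1 (0.20 ± 0.27), VARS1 (0.11 ± 0.13) and YARS1 (0.17 ± 0.21), whose brightest probe sets are given next, and the 2 probe sets of FARSB and of KARS1 differed in sign without passing.

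The other cytosolic enzymes called higher in parental differed by less. YARS1, the tyrosyl enzyme, read 2261 ± 96.2 in parental, 1546 ± 50.6 in 16F8, 1451 ± 27.2 in 2C11, 1357 ± 22.2 in 2H1, 1861 ± 145 in 3A4, 1832 ± 143 in 17H5, 1715 ± 87.4 in 8G12, 1559 ± 338 in 45G3 and 1572 ± 21.1 in 47C2. Parental stood first, while the arrays of 3A4, 17H5, 8G12 and 45G3 overlapped below it. IARS1, the isoleucyl enzyme of the multi-synthetase complex, read 3479 ± 308 in parental, 2762 ± 158 in 16F8, 2738 ± 87.3 in 2C11, 2380.2 ± 66.8 in 2H1, 2442 ± 12.2 in 3A4, 2628 ± 135 in 17H5, 2429 ± 162 in 8G12, 2685 ± 11.6 in 45G3 and 2394 ± 47.0 in 47C2. The targeted clones lay close together, and the parental arrays differed from each other by more than those of any other clone. EPRS1, the glutamyl-prolyl enzyme of the same complex, read 1179 ± 26.8 in parental, 918 ± 49.1 in 16F8, 891 ± 3.89 in 2C11, 813 ± 24.1 in 2H1, 1028 ± 79.9 in 3A4, 1047 ± 30.5 in 17H5, 909 ± 59.4 in 8G12, 862 ± 44.9 in 45G3 and 963 ± 31.3 in 47C2, with both 2H1 arrays below the other 16 (3.13% of all genes), though level with 1 array of 45G3.

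The log2 differences between parental and the mean of the targeted clones were 0.50 ± 0.09 for YARS1, 0.44 ± 0.07 for IARS1, 0.35 ± 0.07 for EPRS1 and, for the leucyl enzyme LARS1, 0.40 ± 0.08, with adjusted p of 0.000301, 6.38e-05, 0.000794 and 0.00075. Threonyl TARS1 (0.34 ± 0.08, adjusted p = 0.00218) and asparaginyl NARS1 (0.29 ± 0.08, adjusted p = 0.00787) also passed, but not without parental replicate 2. Valyl VARS1 (0.28 ± 0.10, adjusted p = 0.0332) did not pass without either parental array or 47C2 replicate 2. Without parental replicate 2 the count of cytosolic enzymes higher in parental was therefore 9 in place of 12, and without the 4 arrays of high poly-A controls it was 11. Those 4 arrays include parental replicate 1, so parental then rests on replicate 2 alone, the array that the TARS1 and NARS1 calls need. In that fit AARS1 differed by 0.92 ± 0.09 and SARS1 by 1.02 ± 0.10.

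FARSA, FARSB, HARS1, KARS1 and RARS1 did not follow this order. FARSA, the alpha subunit of the phenylalanyl enzyme, read 277 ± 4.17 in parental, 422 ± 11.9 in 16F8, 344 ± 5.73 in 2C11, 319 ± 17.0 in 2H1, 372 ± 13.2 in 3A4, 285 ± 17.6 in 17H5, 376 ± 3.39 in 8G12, 408 ± 61.5 in 45G3 and 438 ± 4.24 in 47C2. Parental and 17H5 were lowest with overlapping arrays, and 47C2 and 16F8 were among the highest. Parental lay 0.40 ± 0.08 below the mean of the targeted clones (adjusted p = 0.00112), and the second FARSA probe set gave -0.39. FARSB, which forms the enzyme with FARSA, differed by -0.15 ± 0.07 (adjusted p = 0.112). HARS1 was 634 ± 22.3 in parental, 947 ± 3.32 in 3A4, whose arrays lay above the other 16 (6.89% of all genes), and 668 to 807 in the other clones; its parental value was 0.24 ± 0.08 lower (adjusted p = 0.0324), a call lost without either parental array. KARS1 ranged over its 18 arrays from 2405 to 2823 with a median of 2609.9, the smallest ratio of highest to lowest among the 32, and differed by 0.08 ± 0.06 (adjusted p = 0.338).

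RARS1, the arginyl enzyme, read 655 ± 209 in parental, 842 ± 288 in 16F8, 1481 ± 65.5 in 2C11, 691 ± 229 in 2H1, 451 ± 194 in 3A4, 789 ± 250.1 in 17H5, 864 ± 67.6 in 8G12, 1102 ± 59.1 in 45G3 and 522 ± 99.2 in 47C2. The arrays of several clones lay far apart, with a within-clone SD of 0.398 on the log2 scale against a median of 0.091 for cytosolic enzymes, and both arrays of 2C11 lay above the other 16 (0.75% of all genes). RARS1 passed the F-test (adjusted p = 0.00262) but not the contrast of parental with the targeted clones (-0.28 ± 0.22, adjusted p = 0.355). Of the 5 measured synthetases of the multi-synthetase complex, EPRS1, IARS1 and LARS1 were thus higher in parental, and KARS1 and RARS1 did not pass.

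The 8 comparisons of a targeted clone with parental share the parental arrays and so are not independent of each other. In 16F8, 9 cytosolic synthetases were lower and 1 higher (9.58% and 12.4% of all genes), with a median log2 change of -0.33; the ends were WARS1 at -1.06 and LARS2 at 0.68. In 2C11, 10 were lower and 2 higher (12.5% and 13.4%), with a median of -0.36, AARS1 lowest at -1.14 and RARS1 highest at 1.21. In 2H1, 12 were lower and 0 higher (16.3% and 14.7%), with a median of -0.55, SARS1 lowest at -1.20 and LARS2 highest at 0.49. In 3A4, 9 were lower and 2 higher (19.6% and 17.6%), with a median of -0.32, AARS1 at -0.97 and CARS2 at 0.66.

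Among the IDH2-mutant clones, 8G12 had 10 cytosolic synthetases lower and 1 higher (7.06% and 11.4%), with a median of -0.37, WARS1 at -0.98 and LARS2 at 0.70; without parental replicate 2 the count of lower ones was 6. In 17H5, 5 were lower and 0 higher (4.97% and 6.88%), with a median of -0.21; WARS1 was lowest at -0.88, and MARS2 stood highest at 0.60 without passing (adjusted p = 0.0793). The 5 were AARS1, GARS1, IARS1, SARS1 and WARS1, and 3 passed without parental replicate 2 or without either 17H5 array. In 47C2, 11 were lower and 2 higher (13.8% and 14.2%), with a median of -0.44, WARS1 at -1.06 and AARS2 and EARS2 both at 0.69. In 45G3, 12 were lower and 1 higher (14.7% and 15.1%), with a median of -0.45, SARS1 at -1.23 and LARS2 at 0.84. Medians over all genes lay between -0.02 and 0.04 in these comparisons.

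Mitochondrial synthetases did not share this order. Relative to the mean of the targeted clones, 0 of 15 were higher in parental and 6 were lower, with a median of -0.17 (15.8% and 17.8% of all genes called higher and lower). Both parental arrays lay above the other 16 for 0 of 15 and below them for EARS2 and LARS2 (7.17% and 7.69% of all genes). LARS2, the mitochondrial leucyl enzyme, read 154 ± 5.87 in parental, 249 ± 9.69 in 16F8, 264 ± 15.1 in 2C11, 217 ± 16.2 in 2H1, 225 ± 9.05 in 3A4, 204 ± 21.2 in 17H5, 252 ± 16.8 in 8G12, 284 ± 73.4 in 45G3 and 229.6 ± 0.99 in 47C2. Parental was lowest, with 17H5 next. EARS2, the mitochondrial glutamyl enzyme, read 298 ± 21.4 in parental, 406 ± 4.24 in 16F8, 445 ± 32.0 in 2C11, 366 ± 14.4 in 2H1, 369 ± 1.13 in 3A4, 424 ± 27.7 in 17H5, 465 ± 45.0 in 8G12, 452 ± 8.91 in 45G3 and 484 ± 35.5 in 47C2, with 2H1 and 3A4 the lowest of the targeted clones.

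Parental lay 0.62 ± 0.11 below the targeted clones for LARS2 (adjusted p = 0.000334) and 0.51 ± 0.08 below for EARS2 (adjusted p = 0.000122); 2 of 2 probe sets of LARS2 and 3 of 3 of EARS2 passed. The second probe sets of AARS2 (-0.25 ± 0.18, adjusted p = 0.324) and CARS2 (-0.06 ± 0.16, adjusted p = 0.817) did not. The other 4 were the enzymes of alanine, AARS2 (-0.56 ± 0.18), cysteine, CARS2 (-0.39 ± 0.12), histidine, HARS2 (-0.28 ± 0.08), and methionine, MARS2 (-0.47 ± 0.16), with adjusted p of 0.0202, 0.0186, 0.0172 and 0.0321. CARS2, HARS2 and MARS2 lost the call without either parental array and AARS2 without replicate 2, which left 3 or 2 of the 6, and 3 passed without the 4 arrays of high poly-A controls. AARS2 is dim (47.7 to 125 over 18 arrays), with parental arrays at 74.8 and 47.7 that overlap those of 17H5 and 8G12. Mitochondrial phenylalanyl FARS2 (0.40 ± 0.18, adjusted p = 0.0923) and tryptophanyl WARS2 (0.36 ± 0.15, adjusted p = 0.0713) lay above the targeted clones on average but did not pass, and for WARS2 17H5 was level with parental (133 ± 40.9 and 130.2 ± 3.46). The second WARS2 probe set passed as higher in parental (0.43 ± 0.15, adjusted p = 0.0395), as did the first with the poly-A level as a covariate (0.43 ± 0.16, adjusted p = 0.0376). SARS2 ranged from 100.3 to 154 and VARS2 from 86.0 to 115. Their SD between clone means was 0.087 and 0.091 log2, against 0.209 and 0.113 between single arrays of a clone. FARS2 (0.234 and 0.288) and YARS2 (0.251 and 0.252) also had no larger an SD between clone means. So had AARS2 (0.234 and 0.271) and MARS2 (0.246 and 0.246), which are among the 6 called lower in parental, and cytosolic NARS1 (0.103 and 0.103). A mean of 2 arrays varies less than a single array, so equal SDs do not mean that the clones varied by no more than the arrays.

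Clone by clone against parental, 2 mitochondrial enzymes were higher in 16F8, 2 in 2C11, 3 in 2H1 and 4 in 3A4, beside 12.4%, 13.4%, 14.7% and 17.6% of all genes. In the IDH2-mutant clones 7 were higher in 47C2, 6 in 45G3, 2 in 8G12 and 1 in 17H5, beside 14.2%, 15.1%, 11.4% and 6.88%. With 15 enzymes tested, the counts in 16F8, 2C11, 8G12 and 17H5 lie near these shares. Only NARS2 in 2H1 (-0.38 ± 0.14, adjusted p = 0.0416) and WARS2 in 47C2 (-0.78 ± 0.20, adjusted p = 0.00776) were lower than in parental. EARS2 was higher in 8 of 8 clones. Many of the 27 calls of a higher enzyme were near the threshold: without parental replicate 2 the counts were 1 in 16F8, 0 in 2H1, 1 in 3A4, 0 in 17H5, 2 in 47C2 and 2 in 45G3.

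**Figure D3:**
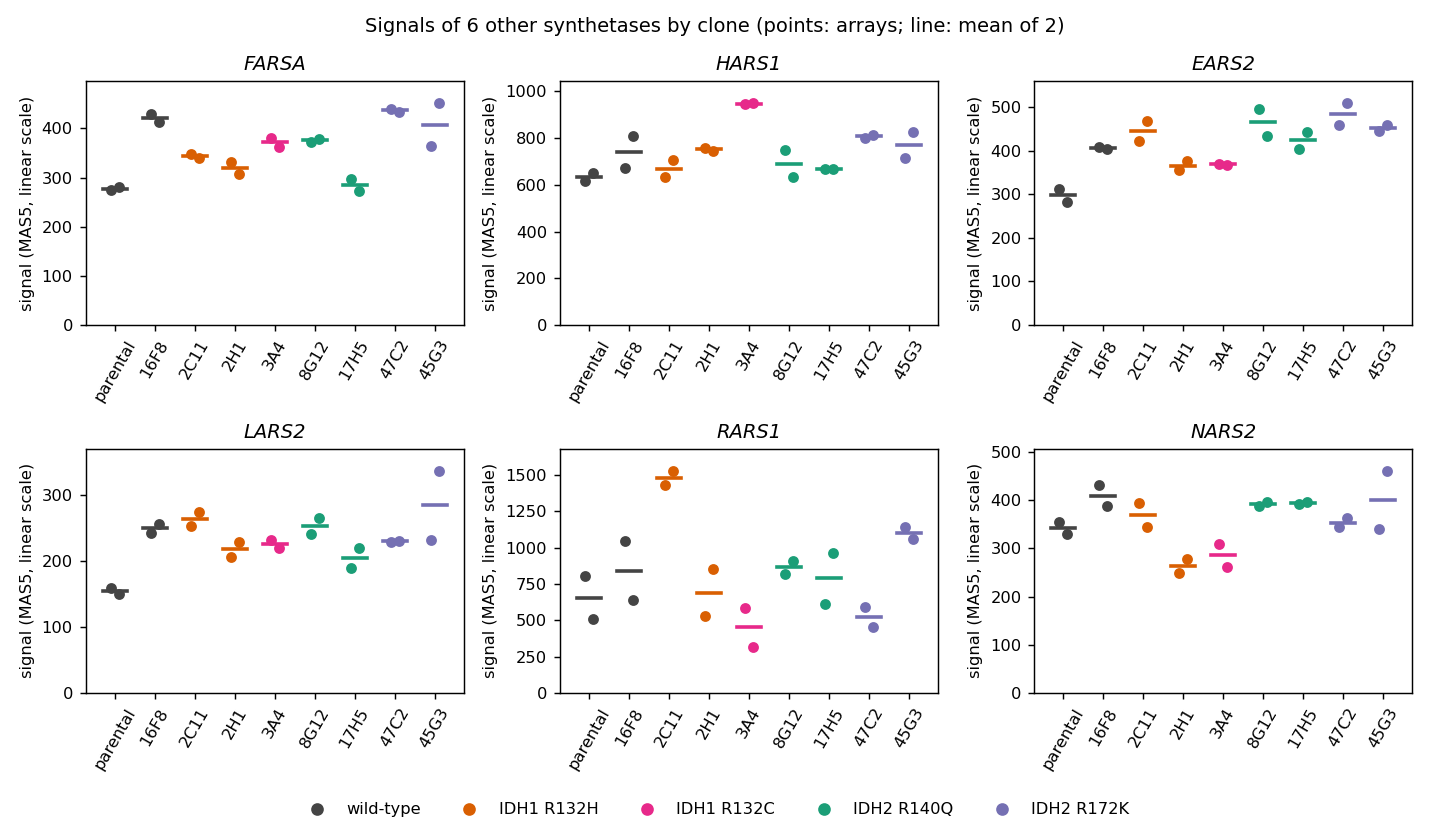
MAS5 signal (linear scale, from 0) of 6 other synthetases in 9 clones, drawn as 2 arrays per clone with their mean; FARSA, HARS1 and RARS1 are cytosolic, EARS2, LARS2 and NARS2 mitochondrial. Parental is lowest for EARS2 and LARS2, 3A4 highest for HARS1, and the 2 arrays of several clones lie far apart for RARS1.

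For 11 amino acids both a cytosolic and a mitochondrial enzyme were measured. In 10 of the 11 pairs the mean change of the targeted clones from parental was higher in the mitochondrial enzyme, and for 8 of the pairs this held in 8 of 8 clones. For alanine AARS1 stood at -0.92 and AARS2 at 0.56, and for cysteine CARS1 at -0.89 and CARS2 at 0.39. Without parental replicate 2 AARS2 stood at 0.25 and the gap for alanine was 1.18, against 1.24 for cysteine, so their order rests on that array. For serine SARS1 stood at -0.99 and SARS2 at 0.04 (-0.27 without parental replicate 2), and for leucine LARS1 at -0.40 and LARS2 at 0.62. Tryptophan differed in that both enzymes were below parental on average (-0.97 for WARS1, -0.36 for WARS2). The neighbours HARS1 and HARS2 stood at 0.24 and 0.28 on average. The change was higher for HARS2 in 7 of 8 clones, while in 3A4 HARS1 stood at 0.578 and HARS2 at 0.172. Whether the 84 bases between them, printed above, bear on these levels was not tested. Arginine was the exception, with RARS1 at 0.28 and RARS2 at -0.12, although RARS1 stood at -0.05 without parental replicate 2 and at 0.61 without replicate 1. These changes all use the same 2 parental arrays, and the pairs were not tested against each other.

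**Figure D4:**
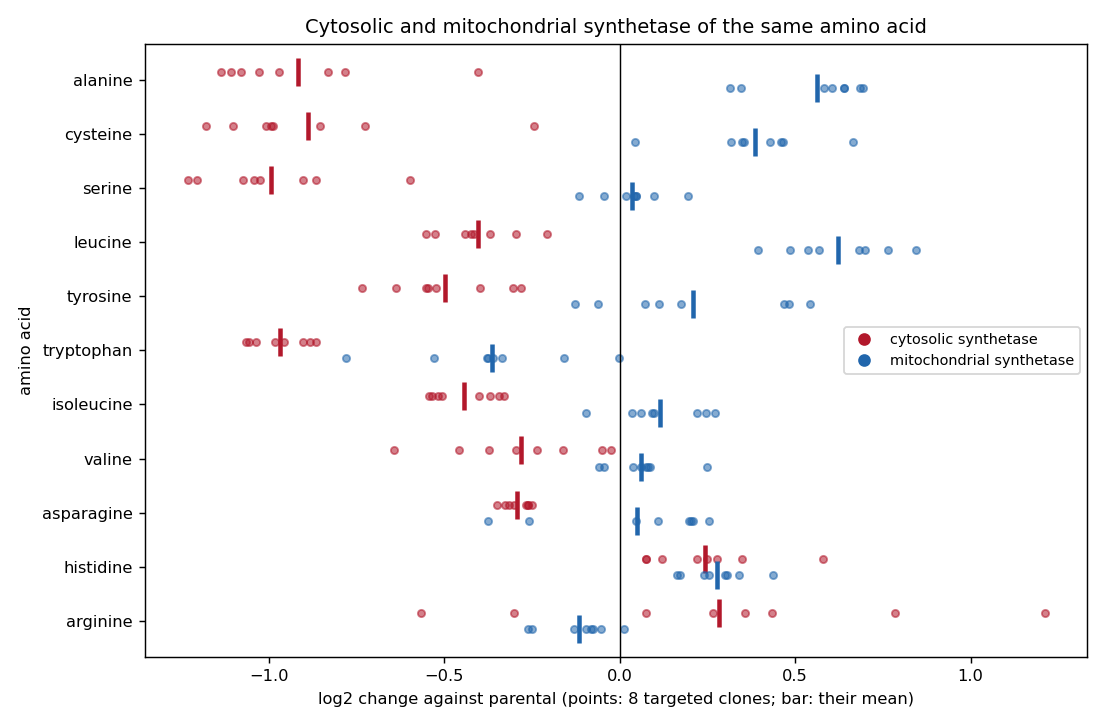
Log2 change against parental of the cytosolic (red) and mitochondrial (blue) synthetase of each of 11 amino acids; points are the 8 targeted clones, which share the parental arrays, and bars their mean. The red and blue points do not overlap for alanine, cysteine, serine, leucine, tyrosine, tryptophan and isoleucine, and overlap for histidine.

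Comparisons with 16F8 use none of the parental arrays but share those of 16F8. Of 17 cytosolic synthetases, 4 were higher in 17H5 than in 16F8 and 1 lower, beside 4.43% and 4.14% of all genes. They were CARS1 (0.75 ± 0.10, adjusted p = 9.39e-05), AARS1 (0.62 ± 0.09, 0.000206), SARS1 (0.43 ± 0.10, 0.0139) and GARS1 (0.42 ± 0.09, 0.006), with FARSA lower at -0.56 ± 0.11 (0.00403). WARS1 was not among them. In 3A4, GARS1 (0.39 ± 0.09) and HARS1 (0.36 ± 0.11) were higher and RARS1 (-0.92 ± 0.30) lower than in 16F8, beside 10.4% and 16.0% of all genes, and the mitochondrial NARS2 (-0.52 ± 0.14) and PARS2, the prolyl enzyme (-0.68 ± 0.14), were lower. In 2H1, FARSA (-0.40 ± 0.11), FARSB (-0.31 ± 0.09) and VARS1 (-0.41 ± 0.13) were lower, with IARS2 (-0.34 ± 0.10) and NARS2 (-0.63 ± 0.14), beside 16.5% of all genes called in either direction. The 5 calls of 32 synthetases in 3A4 and the 5 in 2H1 are no more than these shares. In 2C11, 8G12, 47C2 and 45G3, 0 of 32 synthetases passed by limma against 16F8, beside 2.26%, 0.63%, 6.41% and 2.17% of all genes called in either direction; 2, 3, 4 and 1 had an unadjusted p under 0.05.

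Clones of 1 genotype were compared next. Between the IDH2 R140Q clones, AARS1 was 0.38 ± 0.09 higher and CARS1 0.48 ± 0.10 higher in 17H5 than in 8G12 (adjusted p = 0.0216 and 0.00778), 2 of 32 synthetases beside 3.37% of all genes; AARS1 was lost without any 1 of the 4 arrays of these clones, CARS1 without replicate 2 of either, and both without the 4 arrays of high poly-A controls. Between the IDH1 R132H clones, RARS1 was 1.14 ± 0.30 and NARS2 0.49 ± 0.14 lower in 2H1 than in 2C11 (adjusted p = 0.0362 and 0.0486), 2 of 32 beside 4.6% of all genes, and RARS1 was lost without either 2C11 array or 2H1 replicate 1. NARS2 passed without either 45G3 array, but not without any 1 of the other 16, nor with the replicate block. Neither passed without the filter on dim probe sets or without the trend. Between the IDH2 R172K clones 0 of 32 passed by limma, beside 2.94% of all genes, and 6 had an unadjusted p under 0.05.

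The comparison of mutant with wild-type clones was made on the 9 clone means, 7 against 2, so that the spread was that between clones. By limma 0 of 32 synthetases passed for mutant against wild-type, 0 for IDH1-mutant and 0 for IDH2-mutant against wild-type, and 0 for IDH2-mutant against IDH1-mutant, beside 0.0%, 0.0%, 0.0% and 0.00797% of all genes; unadjusted p lay under 0.05 for 864, 1925, 633 and 1652 of 12541 genes, among them 3, 2, 2 and 1 synthetases. The smallest p of a member was that of IARS1, 0.29 ± 0.09 lower in mutant clones (adjusted p = 0.682). The wild-type clones differed from each other: WARS1, for one, was 1.06 ± 0.11 lower in 16F8 than in parental, and its mutant minus wild-type value was -0.43 ± 0.20 (adjusted p = 0.682). With 16F8 left out, parental is the lone wild-type clone, with no spread of its own, and only effect sizes are given. WARS1 then differed by -0.96 log2 in all mutant clones, by -0.935 in IDH1-mutant and by -0.97 in IDH2-mutant clones. In IDH1-mutant clones AARS1 differed by -1.07 and SARS1 by -1.05.

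The order of the clones was next set beside other ATF4 targets. Textbooks and reviews name 11 of the measured synthetases as ATF4-induced. All 11 were higher in parental than in the mean of the targeted clones (15.8% of all genes), with a median of 0.50. They are the same 11 genes whose parental arrays both lay above the other 16, so the count repeats that result and adds no separate evidence. Of the 6 other cytosolic enzymes VARS1 was higher and FARSA and HARS1 lower (15.8% and 17.8% of all genes), with a median of -0.20. Of 28 ATF4 targets that are no synthetases, 26 were higher in parental and 0 lower (15.8% and 17.8% of all genes). ASNS differed by 1.39 ± 0.08 (adjusted p = 3.43e-09), the kinase-like inhibitor TRIB3 by 2.25 ± 0.12, the glutathione-degrading enzyme CHAC1 by 1.97 ± 0.20, the transcription factor DDIT3 (CHOP) by 1.51 ± 0.13 and the cystine transporter SLC7A11 by 1.42 ± 0.09. The ATF4 transcript itself differed by 0.17 ± 0.11 (adjusted p = 0.234), and AIMP1, the 1 scaffold of the multi-synthetase complex measured, by 0.13 ± 0.08 (adjusted p = 0.209).

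The 17H5 clone differed between these groups. Against parental 4 of the 28 ATF4 targets were lower and 4 higher in 17H5 (4.97% and 6.88% of all genes), among them CHAC1 at 1.19 ± 0.27 and DDIT3 at 1.03 ± 0.17 higher, while ASNS was 0.54 ± 0.11 lower and TRIB3 differed by -0.07 ± 0.16. Against 16F8, 20 of 28 were higher in 17H5 and 0 lower (4.43% and 4.14% of all genes), with a median of 0.81 and DDIT3 at 3.21 ± 0.17. Against 8G12, its partner of the same genotype, 9 of 28 were higher, among them TRIB3 (1.49 ± 0.16), DDIT3 (1.28 ± 0.17), SLC7A11 (1.08 ± 0.13) and ASNS (0.56 ± 0.11), beside 1.58% of all genes. In 16F8, 2C11, 2H1, 3A4, 47C2 and 45G3, 23 to 25 of the 28 were lower than in parental (9.58% to 19.6% of all genes), and in 8G12, 13 were (7.06%).

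**Figure D5:**
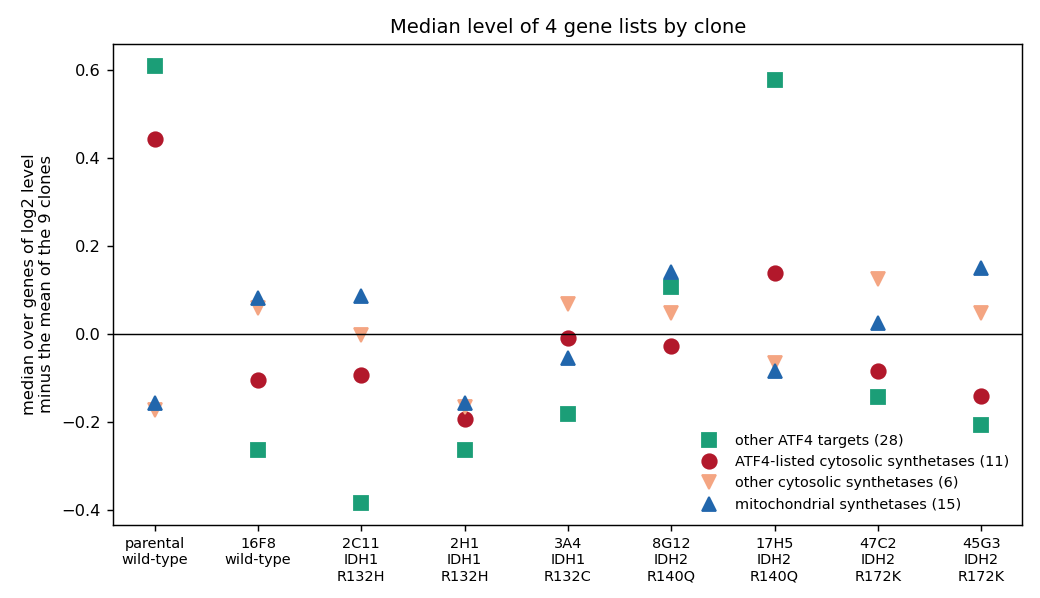
Median over the genes of a list of the log2 clone mean minus the gene's mean over 9 clones; squares are 28 ATF4 targets that are no synthetases, circles 11 ATF4-listed cytosolic synthetases, inverted triangles 6 other cytosolic and triangles 15 mitochondrial synthetases. Squares stand at 0.61 in parental and 0.58 in 17H5, circles at 0.44 and 0.14.

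Across the 9 clone means, AARS1, CARS1, GARS1, SARS1 and WARS1 correlated with each other at a median r of 0.892 over 10 pairs, and at 0.729 (0.208 to 0.937) over the 8 targeted clones. Over all pairs the median was 0.432 for 136 cytosolic pairs, 0.371 for 105 mitochondrial pairs and -0.063 for 255 mixed pairs, and over the 8 targeted clones it was 0.313, 0.38 and 0.058. The points are clone means of the same arrays and are given as a description. In the targeted clones alone the SD between clone means was largest for RARS1 (0.567 log2), CARS1 (0.295) and YARS2 (0.258), and for WARS1 it was 0.079, against 0.331 with parental among the clones.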

How the data were processed

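The deposited intensities are MAS5 signals on a linear scale, per the submitters' processing notes, which name no version. Each array had been scaled to 1 level, as the file's values show. A GEO platform annotation named 41091 of 54675 probe sets with 1 gene symbol, 1801 with several and 11721 with none; 62 were controls. An offset of 2.2 (the 25th percentile over all arrays) was added before log2. Tests were limited to probe sets at or above the array median in both arrays of some clone, and each gene was represented by its probe set of highest mean. In limma 3.58.1 under R 4.3.3, lmFit and eBayes (with trend) were run over all 12541 genes, two-sided, with Benjamini-Hochberg adjustment at 0.05: on 18 arrays with 9 residual degrees of freedom for clones, and on 9 clone means with 7 or 6 for genotypes. Errors of log2 values are standard errors. On simulated data for 8G12 against parental, 32% of genes changed by 0.5 log2 and 78% of those changed by 1 were recovered. The F-test recovered 11% and 58% of the same genes. Few genes were changed there, and only in 8G12, whereas 11.4% and 7.06% of genes were called higher and lower in the data. Recovery in the data may therefore differ.

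Every synthetase could be named; clone values were given for the 12 smallest F-test p-values and for both ends of each comparison with parental, and in other lists for up to 4 genes with the smallest F-test p-values. Members, gene lists and tests were chosen with earlier results of these data known. Deviations of arrays of the same replicate number correlated at -0.353 to 0.383 over 36 pairs of clones, with a median of 0.002. Some pairs thus deviated together and others in opposite directions. With no direction common to the pairs, the number was not in the model. The alternatives changed the offset, the filter, the normalization, the choice of probe set, the variance model or the reference clone, added the replicate block or the poly-A level, or left out an array or a clone. Python 3.11.15 with matplotlib 3.10.9 drew the figures.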

Additional observations from a re-analysis of the deposited data

Results flagged for a closer look

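Clones of the same genotype differed in 4 results by test, 2 of 32 synthetases for R132H, 2 of 32 for R140Q and 0 of 32 for R172K. Of all genes 4.6%, 3.37% and 2.94% were called, so the counts lie near those shares. NARS2 was lower in 2H1 than in 2C11 (-0.49, limma), and RARS1 was lower there as well (-1.14); the replicate block ended the call of NARS2, and fitting without the filter or without the trend ended both. AARS1 and CARS1 were higher in 17H5 than in 8G12 (0.38 and 0.48). Among the 4 IDH2-mutant clones, AARS2 in 17H5 stood apart from the others at 6.27 log2, against 6.59 to 6.65 in the other 3. NARS2 in 47C2 stood apart at 8.47, against 8.62 to 8.64. Only the clone means were apart, and the arrays overlapped. For AARS2, 8G12 replicate 1 read 71.2, between the 17H5 arrays at 70.0 and 80.2. For NARS2, 45G3 replicate 1 read 340.1, below the 47C2 arrays at 344.0 and 362.8. AARS2 in 17H5 and NARS2 in 47C2 were 2 of 64 groups examined for a clone apart, and chance gives about 3.2.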

How the results depend on the processing

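The counts rest on 2 arrays per clone. Of 1368 values of single synthetases in the clone comparisons under other settings, 1230 kept direction and side of the threshold, 126 no longer passed, 3 newly passed and 9 reversed; of 2736 with an array left out, 2531 kept both and 4 reversed. The 4 were differences between parental and the targeted clones that had not passed, all turned by leaving out parental replicate 2: over the arrays left out, RARS1 spanned -0.612 to 0.048, NARS2 -0.098 to 0.003, SARS2 -0.341 to 0.271 and VARS2 -0.144 to 0.023. In the same contrast KARS1, not called, turned to -0.015 with quantile normalization. The other 8 reversals came with the probe set of highest variance, which for CARS1 is a dim one: CARS1 gave -0.016 for parental against the targeted clones and 0.76 in 3A4, 0.40 in 45G3 and 0.22 in 8G12 against parental, TARS1 0.35 and YARS1 0.36 in 8G12, and for parental against the targeted clones FARSB 0.22 and KARS1 -0.032, neither called. With such probe sets the lower cytosolic enzymes numbered 5 in 16F8, 6 in 2C11, 5 in 8G12, 6 in 47C2 and 7 in 45G3, the higher mitochondrial ones 1 in 16F8 and 1 in 2H1, and the 2H1 and 2C11 pair had 1 call. The cause of changes under other settings was not tested. Outside the main fit and the fit with 16F8 as the reference, the share of all genes called is not given. Whether a count that moved did so with the calls over all genes was therefore not tested.

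With 16F8 as the reference, lower cytosolic enzymes numbered 0 in 2C11, 45G3, 47C2 and 8G12, 1 in 3A4, 1 in 17H5 and 3 in 2H1, and higher mitochondrial ones 0 in each. Of 12541 genes, 160, 153, 518, 13, 2003, 519 and 1257 were lower in these clones, in that order. Higher were 123, 119, 286, 66, 1298, 555 and 808. For the settings that follow, the share of all genes called is not given. With the poly-A level as a covariate, higher mitochondrial enzymes numbered 7 in 16F8, 7 in 2C11, 4 in 8G12 and 2 in 17H5, 8 cytosolic ones were lower in 17H5, and calls within a genotype 4 for R132H and 3 for R172K. Without the 4 arrays of high poly-A controls (chosen after seeing the data), 5 mitochondrial enzymes differed among clones, 1 was higher in 8G12, 2 in 17H5 and 4 in 47C2, 3 were lower in parental than in the targeted clones, and calls within a genotype were 0 for R132H, 0 for R140Q and 1 for R172K. Leaving out those 4 arrays leaves parental, 16F8, 2C11 and 8G12 with 1 array each. Without a filter, 5 mitochondrial enzymes differed among clones, 1 was higher in 2H1 and 3 in 47C2, and the R132H pair had 0 calls. Quantile normalization gave 4 higher mitochondrial enzymes in 2C11 and 1 in 2H1, 3 lower cytosolic ones in 17H5, and 4 and 1 calls within R140Q and R172K. Without the trend, 4 mitochondrial enzymes differed among clones, 1 was higher in 2H1 and 4 in 47C2, and the R132H pair had 0 calls.

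The replicate block gave 14 cytosolic and 7 mitochondrial enzymes that differ among clones and 1 call in place of 2 for the R132H pair (NARS2 was lost); it moved no other count by over 1.5 times. Leaving out 1 array in turn, mitochondrial enzymes that differ among clones numbered 4 to 9, and lower cytosolic ones 6 to 11 in 8G12 and 3 to 6 in 17H5. Higher mitochondrial ones numbered 1 to 3 in 16F8, 2 to 4 in 2C11, 0 to 3 in 2H1, 1 to 4 in 3A4, 0 to 2 in 17H5, 2 to 7 in 47C2 and 2 to 7 in 45G3, and those lower in parental than in the targeted clones 2 to 6. Calls within a genotype ranged over 0 to 2 for R132H, 0 to 3 for R140Q and 0 to 2 for R172K. With 1 mutant clone left out, 0 synthetases passed for mutant, IDH1-mutant or IDH2-mutant against wild-type clones. With 16F8 or parental left out, 1 wild-type clone remains without a spread of its own, and no count is given.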

Other observations

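Genes of translation outside the synthetases did not share the order of the cytosolic enzymes as a list. Of 14 mitochondrial translation factors and tRNA amidotransferase subunits, 2 were higher and 5 lower in parental than in the mean of the targeted clones (15.8% and 17.8% of all genes, as for the lists that follow), with a median log2 difference of 0.01. GATB and GATC, subunits of the amidotransferase that makes mitochondrial glutaminyl-tRNA from the product of EARS2, lay on opposite sides: GATB was 0.67 ± 0.09 lower in parental (limma, adjusted p = 2.27e-05) and GATC 0.32 ± 0.08 higher (adjusted p = 0.00359). Of 12 cytosolic translation factors, 1 was higher and 2 were lower, no more than these shares; the higher was EIF4EBP1, an inhibitor of cap-dependent translation and itself an ATF4 target (0.98 ± 0.11, adjusted p = 5.97e-06).

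Of 10 genes of eIF2, its kinases and phosphatase subunits and ATF4, 2 were higher and 3 lower in parental (15.8% and 17.8% of all genes). The higher were PPP1R15A (GADD34), the stress-induced phosphatase subunit that dephosphorylates eIF2 (0.87 ± 0.13, adjusted p = 8.93e-05), and the constitutive PPP1R15B (0.23 ± 0.07, adjusted p = 0.0148). The lower were the eIF2 kinases EIF2AK2 (PKR, -0.20 ± 0.07, adjusted p = 0.0357) and EIF2AK4 (GCN2, -0.39 ± 0.09, adjusted p = 0.00254) and the eIF2 alpha subunit EIF2S1 (-0.22 ± 0.07, adjusted p = 0.0152), the last pair named after their values were seen. PPP1R15A in 17H5 was 0.24 above parental without passing. Of 7 interferon-induced genes, 0 were higher and 1 lower in parental (15.8% and 17.8% of all genes), the lower being IFIT1 (-0.67 ± 0.13, adjusted p = 0.000779), a list set beside WARS1 because interferon induces it.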
